A study of Mus musculus with 8 samples.

Results

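Genes of cholesterol synthesis, uptake and efflux were examined in ribosome-associated RNA of midbrain dopaminergic neurons from mice given the neurotoxin MPTP or saline. The set holds 33 genes matched by symbol, of 21761 genes in the deposited count table, and it covers the enzymes from acetyl-CoA to cholesterol, the sensors that control them, and the proteins that move, store, break down and export sterol. MPTP enters the brain and is turned there into a mitochondrial toxin that dopaminergic neurons take up. Both groups were C57BL/6 mice sampled 4 days after the last of 5 daily intraperitoneal injections. The 4 MPTP libraries came from mice given MPTP-HCl (30 mg/kg, as free base), and the 4 saline libraries came from mice given saline. RNA was obtained by translating ribosome affinity purification (TRAP), in which tagged ribosomes of one cell type are pulled down with the RNA they carry. The deposited counts are named for dopaminergic neurons of the SN, read here as substantia nigra. The labels do not say which dissection was used. They also do not give the promoter that drives the tag, the age or sex of the mice, or whether animals were pooled. They number the replicates without saying that each came from a separate animal, so the p-values speak to the spread among these libraries alone, some of which may be technical.

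Cells make cholesterol from acetyl-CoA by way of mevalonate, isoprenoid diphosphates, squalene and lanosterol. When membrane sterol is low, SCAP escorts the SREBP transcription factors out of the endoplasmic reticulum, and SREBP2 then switches on nearly every enzyme of the route, while the INSIG proteins hold the complex back when sterol is plentiful. The blood-brain barrier keeps lipoprotein cholesterol out of the brain, so brain cells make their own, neurons take up more of it from astrocytes, and neurons remove the excess by hydroxylation with CYP46A1 or by export through ABCA1 and ABCG1, both targets of the liver X receptors.

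The libraries held 66450856 to 78892061 counts in MPTP and 54192354 to 69333470 counts in saline. Levels are given in CPM, a gene's counts as a share of the TMM-scaled library, and log2 fold changes are MPTP minus saline. The summed level of 10 dopaminergic markers (Th, Slc6a3 and Ddc among them) was the highest of the 5 marker lists in every library. It was 8435 to 9932 CPM in MPTP, against 7589 CPM in saline 3 and 11770 to 12730 CPM in saline 1, 2 and 4. The sums in saline 1, 2 and 4 thus lay above every MPTP library. No marker of the 5 lists, the non-neuronal ones included, was at 0 in all libraries, which does not speak to purity. The library saline 3 stood apart from the other saline libraries. It had the lowest dopaminergic sum of the 8 libraries, 7589 CPM, and the highest sums of the 10 astrocyte markers (378.5 CPM, against 329.9 to 356.9 in MPTP and 287.9 to 301 in saline 1, 2 and 4) and the 10 oligodendrocyte markers (1693 CPM, against 1155 to 1332 in MPTP and 795.7 to 959.6 in saline 1, 2 and 4). Microglial sums were 32.2 to 41.0 CPM in MPTP, against 24.9 to 38.04 CPM in saline, and endothelial sums were 10.7 to 17.2 CPM in MPTP, against 10.2 to 22.0 CPM in saline. The microglial sum was mostly P2ry12, at a mean of 20.8 CPM in MPTP and 21.8 CPM in saline. Of the 10 microglial markers, 7 had log2 fold changes above 0 and 3 below (median 0.27, and 0.45 without saline 3). Cd68, with the smallest p of them, was scarce, at 1.51 to 2.72 CPM in MPTP, against 0.299 to 0.635 CPM in saline (log2 fold change 2.04, edgeR adjusted p = 0.169). In pull-down RNA of this kind, fewer cells of a type and less RNA per cell cannot be told apart. Counts of calls and list medians are given with and without saline 3, as are the log2 fold changes that leaned on it most.

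A shared feature of these genes that the list itself did not use lies in their promoters. NF-Y is a factor that acts beside SREBP on sterol genes and reads the letters CCAAT. Its box, on either strand, lay between 250 bases before and 50 bases after an annotated start of 15 of the 16 enzyme genes that have an entry in the RefSeq promoters of GRCm38.p6, Acat2 being the exception. The genes with no entry are Fdft1, Fdps, Sqle, Npc1, Abcg1 and Stard4. The box lay there for 7 of the 11 other genes with an entry, which gives 22 of 27, or 81.5%, in all. Among 27025 genes with an entry the share was 41.1%, and among the 11820 of them that were tested for expression it was 42.4%. The E-box CACGTG, which SREBP1 and other factors can bind, was in 6 of the 27 (22.2%), namely Abca1, Dhcr7, Hsd17b7, Insig1, Sc5d and Scap, against 11.1% of the tested genes. The core CACCCCAC of the sterol regulatory element was in 2 of the 27, Acat2 and Hmgcs1 (7.41%, against 3.81%). In 5 neighbouring gene lists, described further on, the NF-Y share ran from 42.9% for SREBP processing to 69.2% for lipoprotein receptors and sterol transfer, which is above the 63.6% of the 11 genes outside the enzyme arms. The E-box share ran from 7.14% to 28.6% in these lists, the highest again being above that of the cholesterol genes. These are matches of letters in a window and do not show binding, and a gene with several annotated starts was counted once if any of them had a match. The 3 enzyme genes with the smallest edgeR p on the negative side, which are described below, all carried NF-Y boxes, shown in capitals as they read on the printed strand. Hsd17b7 also carried the E-box. Their windows are Mvd at chr8:122443373-122443672 on the minus strand, Idi1 at chr13:8885356-8885655 on the plus strand, and Hsd17b7 at chr1:169969156-169969455 on the minus strand, each read 5′ to 3′.
Mvd: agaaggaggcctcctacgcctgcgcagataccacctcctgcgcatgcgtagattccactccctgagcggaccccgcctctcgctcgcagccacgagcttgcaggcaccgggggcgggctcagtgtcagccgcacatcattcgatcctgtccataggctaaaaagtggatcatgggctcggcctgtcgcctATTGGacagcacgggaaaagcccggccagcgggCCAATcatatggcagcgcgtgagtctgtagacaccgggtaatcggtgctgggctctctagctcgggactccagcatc
Idi1: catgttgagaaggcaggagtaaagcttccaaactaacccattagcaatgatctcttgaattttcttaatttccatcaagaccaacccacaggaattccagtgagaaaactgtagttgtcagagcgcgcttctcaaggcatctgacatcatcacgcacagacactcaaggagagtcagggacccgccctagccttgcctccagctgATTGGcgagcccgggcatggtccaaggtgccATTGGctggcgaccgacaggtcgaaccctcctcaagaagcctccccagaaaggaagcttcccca
Hsd17b7: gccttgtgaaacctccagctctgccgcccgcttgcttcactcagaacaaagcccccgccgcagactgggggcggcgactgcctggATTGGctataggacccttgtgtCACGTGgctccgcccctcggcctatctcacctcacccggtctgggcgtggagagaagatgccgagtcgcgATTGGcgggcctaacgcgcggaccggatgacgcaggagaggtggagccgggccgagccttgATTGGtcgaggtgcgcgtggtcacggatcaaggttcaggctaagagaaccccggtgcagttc

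The 3 genes outside the enzyme arms with the smallest p, all with positive fold changes, are given next. The enzyme gene Dhcr7, also with a positive fold change, had 2 NF-Y boxes at 1 annotated start and the E-box at another. Whether the letters go with the sign of the change was not tested. Scap had the E-box and no NF-Y box, Cyp46a1 had 1 NF-Y box, and Nr1h2 had none of the 3 motifs. The windows are Scap at chr9:110333038-110333337 on the plus strand (the first of 2 annotated starts), Nr1h2 at chr7:44553916-44554215 on the minus strand, and Cyp46a1 at chr12:108334066-108334365 on the plus strand, with the same capitals.
Scap: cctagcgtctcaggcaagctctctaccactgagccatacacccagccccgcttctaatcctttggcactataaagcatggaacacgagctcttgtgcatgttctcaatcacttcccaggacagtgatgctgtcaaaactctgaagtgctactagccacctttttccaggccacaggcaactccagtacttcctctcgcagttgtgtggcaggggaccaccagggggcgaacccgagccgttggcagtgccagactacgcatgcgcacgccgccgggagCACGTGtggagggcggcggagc
Nr1h2: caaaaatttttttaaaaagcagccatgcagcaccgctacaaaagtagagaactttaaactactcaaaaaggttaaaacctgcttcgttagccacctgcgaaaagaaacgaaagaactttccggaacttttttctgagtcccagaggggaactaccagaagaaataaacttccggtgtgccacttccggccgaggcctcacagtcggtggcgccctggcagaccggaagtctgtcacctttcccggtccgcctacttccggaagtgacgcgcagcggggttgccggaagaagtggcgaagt
Cyp46a1: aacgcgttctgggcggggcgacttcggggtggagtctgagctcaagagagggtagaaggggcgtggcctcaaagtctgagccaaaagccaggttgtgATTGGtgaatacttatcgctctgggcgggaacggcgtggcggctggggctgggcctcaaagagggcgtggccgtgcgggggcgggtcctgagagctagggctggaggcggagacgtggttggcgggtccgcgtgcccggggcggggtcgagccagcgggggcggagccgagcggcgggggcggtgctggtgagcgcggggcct

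The first question was whether the pathway differed between MPTP and saline neurons at this time. No gene of the set changed by the test. Most synthesis enzymes averaged lower in MPTP and most genes of sterol sensing, handling and efflux averaged higher, with fold changes (MPTP over saline) between 0.772 for Idi1 and 1.27 for Scap. Of the 33 genes, 32 passed the filter on low counts, and Hmgcs1 had no counts. With edgeR, 0 of the 32 passed an adjusted p of 0.05, against 0.106% (17) of the 15999 genes tested (0.075% higher and 0.0313% lower). DESeq2 called 0 of the 32, against 0.332% of 15980 genes, and limma voom called 0, against 18 of 15999 genes. At an unadjusted p under 0.05 there were 7 of 32 (21.9%), against 8.78% of all genes tested. Of these, 3 had negative fold changes (Mvd, Idi1 and Hsd17b7), where the share over all genes was 4.5%, and 4 had positive ones (Dhcr7, Scap, Cyp46a1 and Nr1h2), where it was 4.28%. The groups did not overlap for 2 of the 32 (6.25%), Mvd and Nr1h2, against 4.19% of all genes tested (2.14% lower in MPTP and 2.04% higher). Genes of one pathway are not independent of each other, and no test was made of the list.

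Without saline 3, 1 of the 32 passed in edgeR, Idi1 (log2 fold change -0.49, adjusted p = 0.0341), against 1.84% of 16180 genes tested (0.983% lower in MPTP). At an unadjusted p under 0.05 there were then 13, or 40.6%, against 16.9% of genes. Cell type markers moved with this step: all 10 oligodendrocyte, 7 of 10 astrocyte and 7 of 10 dopaminergic markers were then under an unadjusted p of 0.05, and 4, 2 and 3 of them passed the adjusted p. All 10 dopaminergic markers were then lower in MPTP, and all 10 astrocyte and all 10 oligodendrocyte markers were higher. The non-neuronal marker score described below was also added to the model on these 7 libraries. With it 20 of 16180 genes passed, and 0 of the 32, Idi1 included. That score separates the groups in these libraries, so this fit cannot tell glial carry-over and treatment apart. DESeq2 without saline 3 called 5 (Idi1, Mvd, Fdft1, Cyp46a1 and Nr1h2), against 5.8% of the genes it tested.

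**Figure D1:**
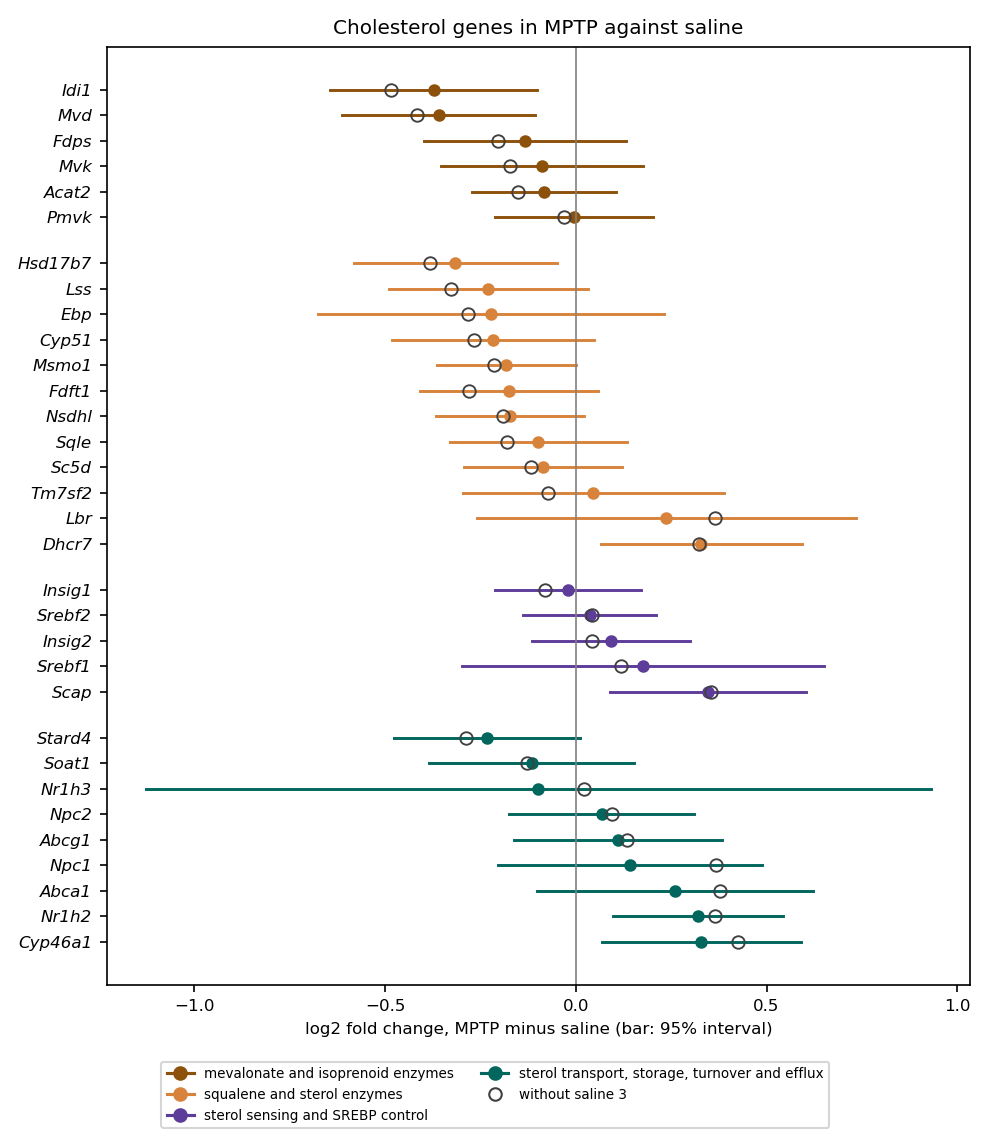
Log2 fold change, MPTP minus saline, of the 32 tested genes by role, with 95% intervals from edgeR on 8 libraries as bars and the estimate without saline 3 as open circles. The intervals of 7 genes do not reach 0, those of Mvd, Idi1 and Hsd17b7 on the negative side and those of Dhcr7, Scap, Cyp46a1 and Nr1h2 on the positive side, and 15 of the 18 enzymes lie below 0 (Pmvk so close that it turns positive with upper quartile scaling).

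The enzymes that make mevalonate and its isoprenoid products come first in the route. All 6 tested had a negative log2 fold change (Pmvk turned to 0.0073 with upper quartile scaling), with a median of -0.11, and 0 passed the test. The median was -0.19 without saline 3 and -0.069 without saline 1. With the non-neuronal score in the model, 3 of the 6 were below 0 and the median was -0.026. Mvd, the decarboxylase that makes isopentenyl diphosphate (chromosome 8, 122433601 to 122443422, GRCm38), was at 17.7, 14.8, 18.7 and 16.6 CPM in MPTP 1 to 4 and at 23.5, 21.2, 19.1 and 23.1 CPM in saline 1 to 4. Every MPTP library lay below every saline library, and the nearest pair were MPTP 3 and saline 3. The mean was 16.9 ± 1.68 CPM in MPTP, against 21.7 ± 2.02 CPM in saline (SD, n = 4 per group), with a log2 fold change of -0.36 (SE 0.12, edgeR adjusted p = 0.415). No other annotated exon overlaps this gene and no 100-base stretch of its exons recurs in another annotated gene.

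Idi1, the isomerase that turns isopentenyl diphosphate into the form that starts chain growth (chromosome 13, 8885501 to 8892451), was at 68.4, 79.5, 62.9 and 79.2 CPM in MPTP 1 to 4 and at 116.8, 88.0, 70.8 and 99.9 CPM in saline 1 to 4. Saline 3 fell inside the MPTP range, and the other 3 saline libraries lay above all MPTP libraries. The means were 72.5 ± 8.25 CPM in MPTP, against 93.9 ± 19.4 CPM in saline (SD, n = 4 per group), with a log2 fold change of -0.37 (SE 0.13, edgeR adjusted p = 0.439). Leaving out single libraries gave -0.49 (saline 3) and -0.25 (saline 1), and the non-neuronal score as a covariate gave -0.28. Of its 100-base exon windows, 15.8% also occur in Gm13502 or Gm35570, so some of its reads could have been counted elsewhere.

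The other 4 enzymes of this arm differed by less than their spread. Acat2, the thiolase of the first step, averaged 103 ± 6.38 CPM in MPTP, against 109.2 ± 10.6 CPM in saline, and shares 28.9% of its exon windows with Acat3. Mvk, mevalonate kinase, averaged 21.5 ± 2.12 CPM in MPTP, against 22.9 ± 3.29 CPM in saline. Pmvk, the kinase of the next step, was almost level, at 88.8 ± 10.4 CPM in MPTP, against 89.1 ± 7.34 CPM in saline, and its sign rests on the scaling and the filter. Fdps, which makes farnesyl diphosphate, averaged 19.3 ± 2.48 CPM in MPTP, against 21.2 ± 2.19 CPM in saline (SD, n = 4 per group for these genes), and 26.7% of its exon bases lie under exons of Gm43738. Their log2 fold changes lay between -0.13 for Fdps and -0.0048 for Pmvk, with edgeR adjusted p between 0.799 and 0.993. Without saline 3 the values were -0.15 for Acat2, -0.17 for Mvk, -0.032 for Pmvk and -0.20 for Fdps.

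Hmgcs1, the synthase that follows the thiolase, had 0 counts in all 8 libraries. If reads over the gene were counted, 3 counts in a library would be 0.0366 to 0.0571 CPM, which is the limit that a count of 0 allows. The 8 genes next to it in the table were also at 0 in every library, so its level is not reported.

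The squalene and sterol enzymes had 9 of 12 log2 fold changes below 0, with a median of -0.17 (-0.20 without saline 3), and 0 passed the test. Hsd17b7, a reductase of the sterol ring's keto group (chromosome 1, 169949535 to 169969241), was at 30.3, 30.8, 29.3 and 38.5 CPM in MPTP 1 to 4 and at 34.2, 46.8, 34.3 and 45.2 CPM in saline 1 to 4. MPTP 1 to 3 lay below all saline libraries, and MPTP 4 lay among them. The log2 fold change was -0.32 (SE 0.13, edgeR adjusted p = 0.492). Other enzymes of the arm had smaller differences in the same direction. Fdft1, squalene synthase, was at 171.1 ± 10.1 CPM in MPTP, against 193.3 ± 34.6 CPM in saline, with saline 3 the lowest of all 8 libraries at 149.7 CPM (log2 fold change -0.18, edgeR adjusted p = 0.675, and -0.28 without saline 3). Of its exon bases, 18.3% lie under exons of Ctsb on the other strand.

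Lss, which closes squalene epoxide to lanosterol, was at 22.3 ± 2.05 CPM in MPTP, against 26.2 ± 3.79 CPM in saline, and MPTP 2 was the lowest library at 19.3 CPM. Sqle, the epoxidase and a rate-limiting step, was at 103.8 ± 14.2 CPM in MPTP, against 111.1 ± 14.2 CPM in saline. Cyp51, the lanosterol demethylase, was at 51.3 ± 8.10 CPM in MPTP, against 59.6 ± 9.66 CPM in saline (SD, n = 4 per group for these genes). The 3 log2 fold changes were -0.23 for Lss, -0.10 for Sqle and -0.22 for Cyp51, with edgeR adjusted p between 0.613 and 0.839. Without saline 3 they were -0.33 for Lss, -0.18 for Sqle and -0.27 for Cyp51. Msmo1 and Nsdhl, which strip the methyl groups from the sterol ring, had the smallest standard errors of the arm (0.09 on the log2 scale for each). Msmo1 was at 64.4 to 72.4 CPM in MPTP, against 71.5 to 86.4 CPM in saline, and only MPTP 2 reached into the saline range (log2 fold change -0.18, edgeR adjusted p = 0.571). Nsdhl was at 35.3 to 40.3 CPM in MPTP, against 39.3 to 45.3 CPM in saline, and only MPTP 4 did so (log2 fold change -0.17, edgeR adjusted p = 0.607).

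Dhcr7, the reductase of the last step of one branch, ran the other way (chromosome 7, 143823145 to 143848410). It was at 31.8, 47.9, 34.8 and 40.9 CPM in MPTP 1 to 4 and at 35.1, 28.4, 30.5 and 29.7 CPM in saline 1 to 4. Saline 1 lay inside the MPTP range and the other 3 saline libraries lay below it. The means were 38.8 ± 7.16 CPM in MPTP, against 30.9 ± 2.91 CPM in saline (SD, n = 4 per group), with a log2 fold change of 0.33 (SE 0.12, edgeR adjusted p = 0.483), which was 0.21 without MPTP 2, its highest library. Sc5d, the desaturase that makes the substrate of Dhcr7, had a log2 fold change of -0.09 (42.2 ± 3.27 CPM in MPTP, against 44.8 ± 4.33 CPM in saline), the opposite sign.

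The remaining 3 sterol enzymes were the scarcest of the arm, below 11 CPM in every library. Ebp, the sterol isomerase, ranged from 4.40 to 7.09 CPM in MPTP and from 5.15 to 9.17 CPM in saline, with a log2 fold change of -0.22 (SE 0.21). Lbr and Tm7sf2 encode a pair of reductases for the same step. Lbr was at 5.65 to 5.98 CPM in MPTP and at 6.10, 4.67, 6.14 and 2.72 CPM in saline 1 to 4, so its log2 fold change of 0.24 (SE 0.23) was 0.04 without saline 4, its lowest library, and 0.36 without saline 3. Tm7sf2 was at 8.91 to 10.4 CPM in MPTP, against 6.88 to 10.3 CPM in saline, with a log2 fold change of 0.05 that turned to -0.07 without saline 3.

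**Figure D2:**
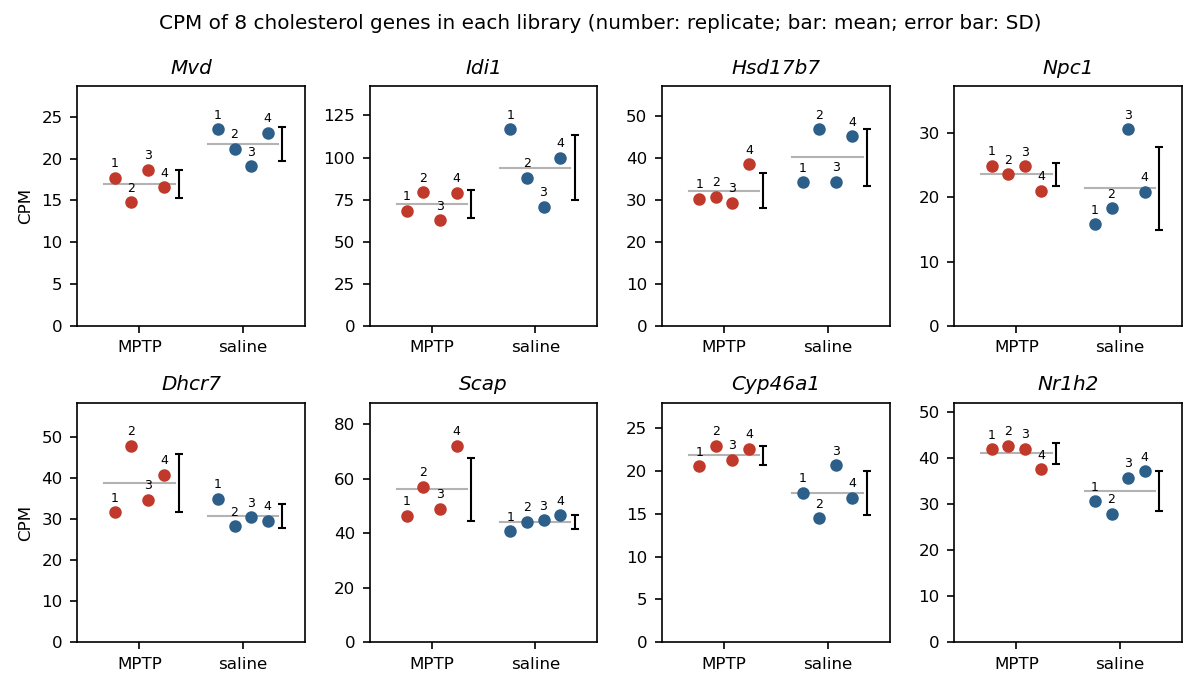
CPM of 8 cholesterol genes in each of the 4 MPTP and 4 saline libraries, with the replicate number above each point, the group mean as a grey line and the SD as an error bar; each axis starts at 0. Mvd is lower and Nr1h2 is higher in every MPTP library than in every saline library, while saline 3 lies within the MPTP range for Idi1 and above it for Npc1.

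Over both arms, 15 of 18 enzymes (83.3%, with Pmvk turning positive with upper quartile scaling) had a negative log2 fold change, against 49.9% of all genes tested, and the median was -0.15, against 6e-04 for all genes. Saline 3 was the lowest saline library in 11 of these 18 enzymes (61.1%, against 29.4% of all genes), and in all 10 dopaminergic markers. Without it 16 of the 18 (88.9%) were below 0 and the median was -0.20. With the non-neuronal marker score in the model, on all 8 libraries, 11 of the 18 (61.1%) were below 0 and the median was -0.06. That score was 2.52 to 3.002 on the log2 scale in MPTP, 2.12 to 2.44 in saline 1, 2 and 4, and 3.11 in saline 3. In the 7 libraries without saline 3 the score separates the groups, so glial carry-over and treatment cannot be told apart there. At an unadjusted p under 0.05 there were 4 of the 32 genes with the score in the model, against 6.89% of all genes. The part of carry-over in the enzyme values was not tested.

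**Figure D3:**
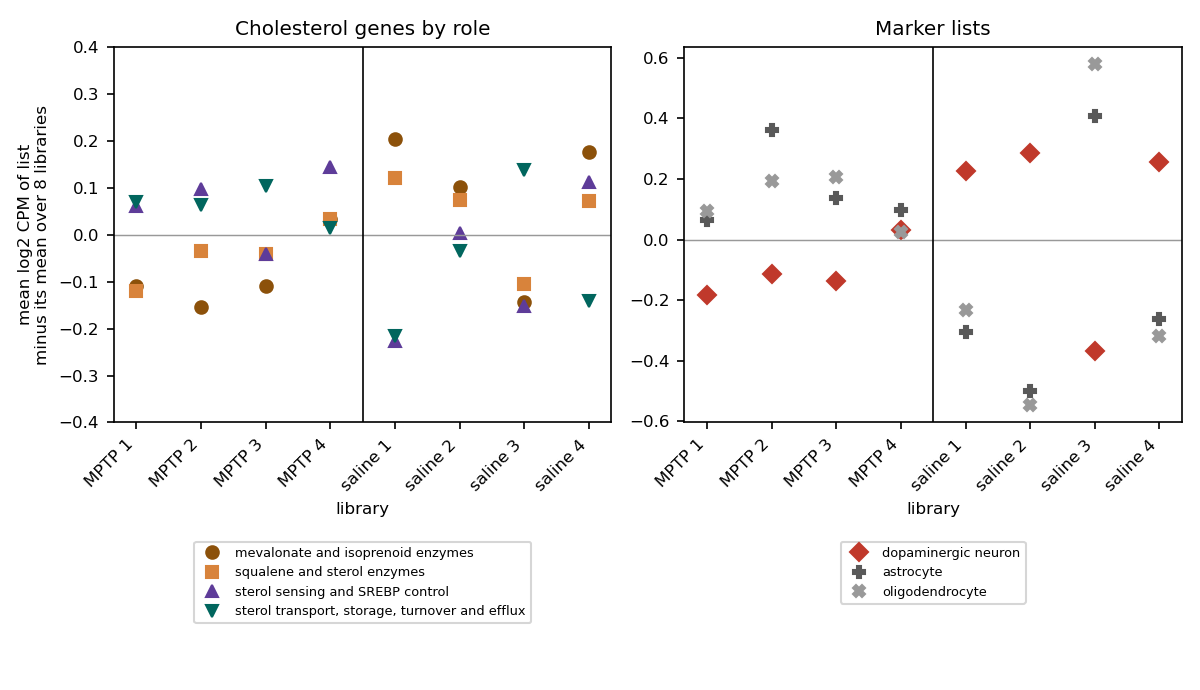
Mean log2 CPM of each role group (left) and marker list (right) in every library, minus that list's mean over the 8 libraries; symbols stand for the lists, and the vertical line divides MPTP from saline. Both enzyme groups are below 0 in MPTP 1 to 3 and in saline 3 and above 0 in saline 1, 2 and 4, and the dopaminergic markers lie on the same side of 0 in each of these libraries.

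The sensing and control genes had 4 of 5 log2 fold changes above 0, with a median of 0.09, and 0 passed the test. Single libraries moved this median, to 0.042 without saline 3 and 0.017 without saline 1, and it was 0.15 with the non-neuronal score. Scap, the escort protein (chromosome 9, 110333288 to 110384950), was at 46.4, 57.1, 49.0 and 72.2 CPM in MPTP 1 to 4 and at 40.9, 44.3, 44.8 and 46.7 CPM in saline 1 to 4. Only MPTP 1 and saline 4 crossed, and MPTP 4 was the highest by a wide gap. The means were 56.2 ± 11.6 CPM in MPTP, against 44.2 ± 2.43 CPM in saline (SD, n = 4 per group), with a log2 fold change of 0.35 (SE 0.12, edgeR adjusted p = 0.443), which was 0.21 without MPTP 4. Of its exon bases, 13.2% lie under an annotated transcript of uncertain status on the other strand. With the non-neuronal score in the model the log2 fold change of Scap was 0.37, the same direction and no smaller.

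Srebf2, which encodes the main activator of the synthesis enzymes, was near level, at 126.2, 131.6, 124.7 and 134.9 CPM in MPTP 1 to 4 and at 119.9, 116.9, 127 and 140.6 CPM in saline 1 to 4. Its log2 fold change was 0.04 with a 95% interval of -0.14 to 0.21. Insig1, itself a target of SREBP2 and a retention factor, was at 145.1 ± 8.27 CPM in MPTP, against 147.3 ± 16.4 CPM in saline (SD, n = 4 per group), with a log2 fold change of -0.02 (95% interval -0.21 to 0.17), and -0.081 without saline 3. Both intervals leave out differences as large as those estimated for Idi1 and Scap. RNA levels do not report the cleavage that activates SREBPs. Insig2, the second retention factor, had a log2 fold change of 0.09 (68.1 ± 6.80 CPM in MPTP, against 63.9 ± 6.49 CPM in saline), which was 0.042 without saline 3. Srebf1, the factor tied chiefly to fatty acid synthesis, varied most of the group, from 9.46 to 16.6 CPM in MPTP and from 7.16 to 17.0 CPM in saline, and its log2 fold change was 0.18 (95% interval -0.30 to 0.65), between 0.0075 without saline 1 and 0.42 without saline 4.

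The transport, storage, turnover and efflux genes had 6 of 9 log2 fold changes above 0, with a median of 0.11, and 0 passed the test. The median was 0.13 without saline 3, 0.025 without saline 1, 0.031 with the non-neuronal score and 0.21 with limma voom. Nr1h2, the liver X receptor beta gene (chromosome 7, 44549616 to 44553951), was at 41.9, 42.7, 42.0 and 37.5 CPM in MPTP 1 to 4 and at 30.6, 28.0, 35.8 and 37.1 CPM in saline 1 to 4. All MPTP libraries lay above all saline libraries, with MPTP 4 and saline 4 nearly touching. The means were 41.0 ± 2.34 CPM in MPTP, against 32.9 ± 4.30 CPM in saline (SD, n = 4 per group), with a log2 fold change of 0.32 (SE 0.11, edgeR adjusted p = 0.415). Its paralogue Nr1h3, liver X receptor alpha, was scarce, with 64 to 100 counts in MPTP and 24 to 137 counts in saline, and its log2 fold change of -0.10 (SE 0.49) changed sign between settings (0.021 without saline 3).

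Cyp46a1, the neuronal hydroxylase that turns brain cholesterol into a form able to leave the brain (chromosome 12, 108334381 to 108362234), was at 20.5, 22.9, 21.3 and 22.5 CPM in MPTP 1 to 4 and at 17.4, 14.5, 20.7 and 16.9 CPM in saline 1 to 4. Saline 3 alone reached the MPTP range, just above MPTP 1. The means were 21.8 ± 1.12 CPM in MPTP, against 17.4 ± 2.56 CPM in saline (SD, n = 4 per group), with a log2 fold change of 0.33 (SE 0.12, edgeR adjusted p = 0.478), and 0.42 without saline 3. With the non-neuronal score in the model that fold change was 0.24. The exporters had smaller fold changes. Abca1, which loads cholesterol onto apolipoproteins, was at 11.9, 11.7, 12.7 and 9.14 CPM in MPTP 1 to 4 and at 9.60, 9.62, 11.7 and 7.02 CPM in saline 1 to 4. Its log2 fold change was 0.26 (SE 0.17, edgeR adjusted p = 0.693), and 0.38 without saline 3. Abcg1, which exports to lipoprotein particles, was at 31.4 ± 2.24 CPM in MPTP, against 29.1 ± 5.78 CPM in saline (SD, n = 4 per group), with a log2 fold change of 0.11.

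Npc1, the lysosomal membrane protein that releases cholesterol taken up with lipoproteins, was at 24.9, 23.6, 24.8 and 21.0 CPM in MPTP 1 to 4 and at 15.8, 18.3, 30.6 and 20.9 CPM in saline 1 to 4. Saline 3 was the highest library of all and the other 3 saline libraries lay below all MPTP libraries. Its log2 fold change was 0.14 with saline 3 and 0.37 without it (edgeR adjusted p = 0.846 and 0.154). Leaving out saline 1 gave 0.025, leaving out saline 2 gave 0.075, and adding the non-neuronal score gave 0.0015. Npc2, the soluble partner of Npc1 in the lysosome, did not share this order, with 46.9 to 52.1 CPM in MPTP, against 34.8, 51.9, 48.8 and 49.4 CPM in saline 1 to 4 (log2 fold change 0.07).

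Stard4, a sterol carrier of the cytosol that is itself a sterol-regulated gene, had the sign of the enzymes and not of the efflux genes. It was at 29.7, 33.03, 29.1 and 33.8 CPM in MPTP 1 to 4 and at 45.9, 34.8, 32.6 and 34.3 CPM in saline 1 to 4, with saline 1 far above the rest. The log2 fold change was -0.23 (SE 0.12, edgeR adjusted p = 0.588), and -0.11 without saline 1. Soat1, which esterifies cholesterol for storage, had a log2 fold change of -0.12 (16.2 ± 1.399 CPM in MPTP, against 17.5 ± 2.17 CPM in saline, SD, n = 4 per group).

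**Figure D4:**
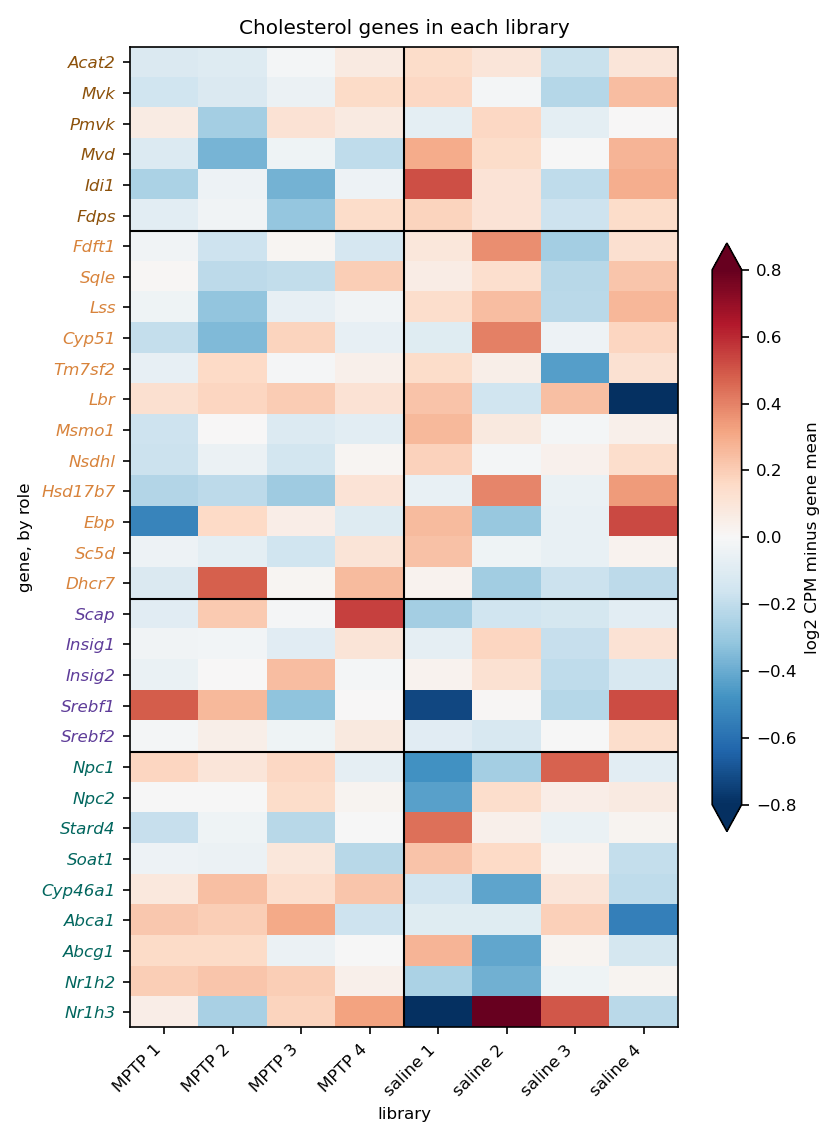
Log2 CPM of each tested gene in each library minus that gene's mean over the 8 libraries, by role from top to bottom, with MPTP libraries left of the vertical line; red is above and blue is below the gene's mean. Saline 1, 2 and 4 are mostly red and saline 3 is mostly blue over the enzymes, and the rows of Scap, Cyp46a1 and Nr1h2 run mostly blue in saline.

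Levels between genes were compared per kilobase of merged exon. Of the 19 enzymes of the synthesis route, 18 passed the filter on low counts, and the order spanned a wide range. Glial markers were also present and no unpurified RNA was compared, so the levels were not assigned to the neurons alone. Pmvk led in both groups, at 51.9 ± 6.05 CPM per kb in MPTP and 52.0 ± 4.28 CPM per kb in saline. Insig1 followed at 46.9 ± 2.66 CPM per kb in MPTP and 47.6 ± 5.31 CPM per kb in saline, then Fdft1 at 40.5 ± 2.38 in MPTP and 45.7 ± 8.19 in saline, and Acat2 at 40.5 ± 2.51 in MPTP and 42.9 ± 4.17 in saline (SD, n = 4 per group). In saline none of these neighbours differed by more than their SDs added together. The next 4 in saline were Idi1 (20.7 CPM per kb in MPTP, 26.8 in saline), Sqle (18.7 in MPTP, 20.0 in saline), Insig2 (19.6 in MPTP, 18.4 in saline) and Srebf2 (18.0 in MPTP, 17.6 in saline). With the longest transcript as the length, 7 of these 8 genes were again in the top 8. The low end held Soat1 (1.65 CPM per kb in MPTP, 1.79 in saline), Lbr (1.217 in MPTP, 1.03 in saline), Abca1 (1.10 in MPTP, 0.916 in saline) and Nr1h3 (0.448 in MPTP, 0.479 in saline). Of the paralogous pairs, Insig1 was above Insig2, Srebf2 above Srebf1, and Nr1h2 above Nr1h3 in both groups, each by more than the SDs. Between the groups the order changed mostly among close neighbours: Nr1h2 was above Mvd in MPTP (12.2 for Nr1h2 and 9.11 for Mvd, CPM per kb) and below it in saline (9.80 for Nr1h2 and 11.7 for Mvd).

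**Figure D5:**
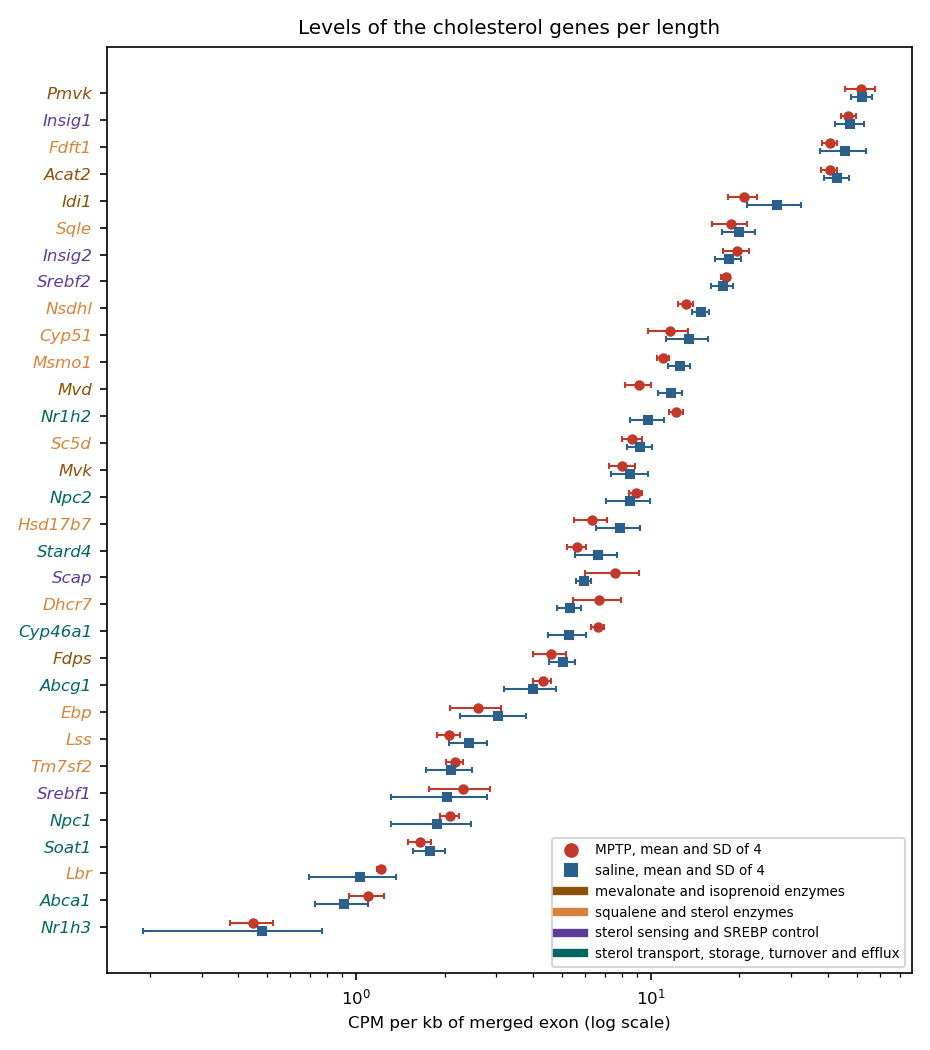
CPM per kb of merged exon, on a log scale, of the 32 genes with counts, ordered by their saline level, with the mean and SD of the 4 MPTP libraries (circles) above those of the 4 saline libraries (squares). Pmvk, Insig1, Fdft1 and Acat2 lie above 40 and Abca1 and Nr1h3 near or below 1, and the means of the groups lie close together beside this range.

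By the median, replicates varied no more for these genes than for genes at large, but the genes were not matched on level. The median coefficient of variation over the 32 genes was 8.91% in MPTP and 14.4% in saline, against 12.4% in MPTP and 14.8% in saline over all genes tested.

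Genes around the pathway were read from the same fit in 5 further lists of 13 to 18 tested genes, and 0 genes passed in any of them. SREBP processing and the degradation of sterol proteins had 10 of 13 log2 fold changes above 0 (median 0.05, and 0.041 without saline 3). Vcp, the ATPase that pulls proteins out of the membrane for degradation, was at 78.5 ± 5.51 CPM in MPTP, against 94.0 ± 15.5 CPM in saline (log2 fold change -0.26). Mbtps2, the protease that makes the second cut in SREBPs, had a log2 fold change of 0.16. Acetyl-CoA supply and the isoprenoid side branches had 9 of 14 below 0 (median -0.04 with and -0.036 without saline 3), the acetyl-CoA makers Acly (-0.19) and Acss2 (-0.16) and the mitochondrial thiolase Acat1 (-0.15) having the smallest p. Lipoprotein receptors and sterol transfer proteins had 11 of 18 above 0 (median 0.01). Without saline 3 their median was -0.0037.

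In that list Lrp1, an endocytic receptor for lipoproteins, was at 62.2 ± 4.63 CPM in MPTP, against 49.2 ± 9.52 CPM in saline (log2 fold change 0.34), and the oxysterol-binding family member Osbpl1a was at 130.5 ± 12.1 CPM in MPTP, against 156.7 ± 17.1 CPM in saline (-0.26). Ester turnover, oxysterols and efflux had 12 of 17 above 0 (median 0.07, and 0.14 without saline 3). Mylip, a ligase induced by liver X receptors that removes lipoprotein receptors, was at 18.5 to 21.6 CPM in MPTP, against 20.9 to 31.3 CPM in saline (-0.34). Hsd3b7, a dehydrogenase of bile acid synthesis, was at 12.63 to 14.1 CPM in MPTP, against 14.15 to 17.58 CPM in saline (-0.23). The groups did not overlap but nearly touched. Such a lack of overlap was seen for 1 of the 17 genes (5.88%), against 4.19% of all genes tested. In the lipoprotein receptor list it was seen for 1 of 18 (5.56%), Osbpl9 (-0.14). The hydroxylase Cyp27a1 was at 2.20 ± 0.551 CPM in MPTP, against 1.43 ± 0.442 CPM in saline (0.63, SE 0.34). Fatty acid genes of the SREBP1 type had 7 of 15 above 0. Their median of -0.01 turned to 0.099 when saline 3 was left out, and the non-neuronal score as a covariate gave -0.071. The smallest p in this list belonged to Me1, the malic enzyme (-0.26), and the desaturases Fads2 (0.26) and Scd1 (0.28). The edgeR adjusted p of every gene named from these lists was between 0.449 and 0.708 (SD, n = 4 per group).

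Without saline 3, 3 of the 77 tested genes of these lists passed in edgeR, against 1.84% of the 16180 genes tested. Vcp was lower in MPTP (log2 fold change -0.37, adjusted p = 0.0345), and Lrp1 (0.46, adjusted p = 0.0405) and Apod (0.68, adjusted p = 0.0214) were higher. Apod, a lipid carrier abundant in glia, was named after its values were seen. Saline 3 was at 70.9 CPM for Vcp, the lowest saline value, and at 60.8 CPM for Lrp1 and 83.2 CPM for Apod, the highest saline values, which is the order it held for the dopaminergic and oligodendrocyte markers.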

How the data were processed

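Counts per gene were measured by RNA sequencing in 4 MPTP and 4 saline TRAP libraries. The cDNA, made from nanograms of RNA by an amplifying kit without strand marking, was sequenced single-end in pools of 2 libraries, per the labels' protocols. Which libraries shared a pool is not given, so pool and treatment cannot be told apart if they ran together. Per the submitters' processing notes, the authors used TopHat2 2.0.8 and mm10. The authors deposited raw counts for 21761 genes. How reads were assigned to genes, and whether strand was used, is not given in the sources used here. Reads from overlapping genes on opposite strands cannot be told apart. Symbols turned into dates (27) were restored from RefSeq (GRCm38.p6). The 90 genes with no symbol (0.0505% to 0.056% of counts) kept their identifier. Replicates of a group always differed by more than sampling noise. Without molecular identifiers, the limit for a count of 0 covers counting error only.

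The deposited counts went into edgeR 4.0.16 (R 4.3.3) with TMM scaling, the filterByExpr filter by group (15999 genes), no covariate and the robust quasi-likelihood F-test. Adjusted p are Benjamini-Hochberg values over all genes tested, with a threshold of 0.05. The SE is the size of the log2 fold change over the square root of F, and 95% intervals use the t distribution of the fit. List scores are mean log2 CPM with a prior count of 2, and the non-neuronal score is the mean of the astrocyte, oligodendrocyte, microglia and endothelial scores. Alternatives were scaling by upper quartile or by DESeq2 size factors, a filter at mean CPM 5 or none, the replicate block, the non-neuronal score as covariate, DESeq2 1.42.0, limma 3.58.1 voom with sample weights, and leaving out each library. DESeq2, voom and the score without saline 3 were added after seeing the data. Positions, exon overlaps and shared 100-base exon windows are from GENCODE vM21 on GRCm38, and promoters are RefSeq windows of GRCm38.p6.

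The genes, the lists, their roles and the tests were chosen with earlier results of these data known. All 33 genes of the set are named. From each neighbouring list the 3 genes with the smallest p could be named. Marker genes were read as sums and as counts over each list, and values were given by name for P2ry12 and Cd68 only. Some genes of the pathway are not reported here.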

Additional observations from a re-analysis of the deposited data

Results flagged for a closer look

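Single libraries stood far from the other 3 of their group, by Dixon's criterion at the 95% level, for 7 of the 64 gene and group pairs examined, and chance gives about 1 in 20. In MPTP, Pmvk was at 73.4 CPM in MPTP 2, against 92.6 to 95.9 CPM in the other MPTP libraries, and Lss was at 19.3 CPM in the same library, against 23.0 to 23.5 CPM. Hsd17b7 was at 38.5 CPM in MPTP 4, against 29.3 to 30.8 CPM in the others, and Nr1h2 was at 37.5 CPM in that library, against 41.9 to 42.7 CPM. Npc2 was at 52.1 CPM in MPTP 3, against 46.9 to 47.8 CPM. In saline, Acat2 was at 93.5 CPM in saline 3, against 113.1 to 116.9 CPM in its fellow saline libraries, and Stard4 was at 45.9 CPM in saline 1, against 32.6 to 34.8 CPM. MPTP 4 accounts for the overlap of the groups for Hsd17b7 and for the narrow gap between them for Nr1h2.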

How the results depend on the processing

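No gene of the set was called under any of the alternatives on 8 libraries, and the count ran from 0 to 1 when each library was left out. Of all genes 17 were called, 11 with a mean CPM of at least 5, 53 with DESeq2, and 8 to 297 when each library was left out (8 without MPTP 4, 10 without saline 1, 297 without saline 3). Without saline 3, DESeq2 called 829 genes and 5 of the set, voom called 252 and 1 (Idi1), and edgeR with the non-neuronal score called 20 and 0. With that score on all libraries the median log2 fold change was -0.072 for the sterol enzymes, -0.056 for both enzyme arms and 0.0087 for the whole set, and Acat2 (0.0001), Mvk (0.016), Pmvk (0.066), Sqle (0.028) and Insig1 (0.066) turned positive; the cause was not tested. The median of the whole set, -0.08, ran from -0.10 without saline 3 to -0.025 without saline 4 (also -0.03 without MPTP 2 or saline 2 and -0.04 without saline 1). Pmvk also turned to 0.0073 with upper quartile scaling and 0.0013 with a mean CPM of at least 5, Tm7sf2 to -0.002 with voom, and Nr1h3 to 0.12 with the replicate block and 0.21 with voom. Leaving out each library gave -0.043 to 0.077 for Pmvk, -0.39 to 0.29 for Nr1h3, -0.081 to 0.035 for Insig1, -0.043 to 0.13 for Npc2 and -0.073 to 0.11 for Tm7sf2. With the replicate block 14 genes and 0 of the set were called. Same-numbered libraries did not deviate together (correlations -0.116 to 0.039), so the numbers were not taken to pair the samples. Nr1h3, Lbr and Ebp are limited by low counts.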

Other observations

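Hmgcs1 lies in a run of 9 neighbouring genes of the table, Ccl28, Nim1k and Zfp131 among them, that had 0 counts in all 8 libraries. On the RefSeq annotation of GRCm38.p6 the run spans chromosome 13 from 119623819 to 120318261, and no gene of the table lies beyond it on that chromosome. The next gene before it, Tmem267, had 4968 counts over the 8 libraries. In the table as a whole 2133 of 21761 genes (9.8%) were at 0 in all libraries. Whether reads over this stretch were counted was not tested, so the 0 counts are not a measure of the gene's level.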
